A study of Mus musculus with 23 samples.

Results

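The inner membrane of the mitochondrion is closed to most charged metabolites, and the carriers of the Slc25 family are the proteins that let them through. Most of them exchange 1 substrate for another: ADP for ATP, phosphate for hydroxide, acylcarnitine for carnitine, malate for oxoglutarate, aspartate for glutamate. In skeletal muscle they feed the matrix with fuel, return ATP to the myofibrils and carry reducing equivalents from glycolysis to the respiratory chain through the malate-aspartate shuttle.

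All probes whose platform gene symbol begins with Slc25a were taken, which gave 76 probes for 46 carriers among the 19057 genes and 45281 probes of the Illumina MouseWG-6 v2.0 array. Within the family the name alone chose the probes. The family and the lists set beside it were chosen with earlier results of these data known. Gastrocnemius muscle of 23 mice had been profiled, 1 array per mouse. The groups were 6 Ms3Yah mice (Ms3Yah Del, monosomic for the Hspa13-App interval of mouse chromosome 16) with 6 diploid littermates, and 6 Ts3Yah mice (trisomic for the same interval by a tandem duplication, called Ts2Yah Dup in the labels) with 5 diploid littermates. All mice carry the strain label C57BL6/J and were adult, with sex and exact age not given in the labels. App is not duplicated in Ts3Yah, and each aneuploid group is 1 engineered line, so that line and copy number cannot be told apart.

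Of 9 interval genes with a probe detected on at least 12 arrays, 9 were lower in Ms3Yah muscles than in their diploid littermates (log2 changes from −0.72 to −0.05) and 8 were higher in Ts3Yah muscles than in theirs (log2 changes from −0.32 to 0.54 over all 9). Of 6 skeletal muscle markers, 6 were detected on at least 12 arrays. Median raw signals of the arrays lay between 84.7 and 101.5, and 16945 to 18669 probes per array were detected, meaning a detection p-value below 0.05 against the negative control probes. The summed signal of 5 adipocyte markers differed widely between mice. It ran from 857 to 6127 in Ms3Yah and from 1045 to 8230 in their diploid littermates, against 934 to 1366 in Ts3Yah and 677 to 2337 in theirs. Summed endothelial markers ran from 1126 to 1398 in Ms3Yah and from 1162 to 1489 in their diploid littermates, against 868 to 1320.3 in Ts3Yah and 1129 to 1417 in theirs, and summed fibroblast markers from 14375 to 20996 in Ms3Yah and from 12349 to 16468 in theirs, against 13119.9 to 15777 in Ts3Yah and 10162 to 17032 in theirs.

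Sequence upstream of a carrier gene is shown for 4 carriers whose window held a searched motif, so it does not describe the other carriers. A promoter row of RefSeq (GRCm38.p6, 300 bases, 250 of them before the start) matched 36 of the 46 carriers, 27 of them among the carriers detected on at least 12 arrays. CCGGAAG, the core recognised by ETS factors such as the product of the interval gene Gabpa, was searched on both strands. It stood in the window of 7 of the 36 carriers (19.4%), against 9.93% of 27025 genes and 8.86% of 32851 promoter rows. The 7 were Slc25a3, Slc25a4, Slc25a17, Slc25a20, Slc25a25, Slc25a38 and Slc25a54. Of the 6 detected on at least 12 arrays, 4 had positive log2 changes in Ms3Yah (0.13 for Slc25a3, 0.12 for Slc25a4, 0.06 for Slc25a17 and 0.32 for Slc25a20) and 2 negative (−1.04 for Slc25a25 and −0.19 for Slc25a38). Over all 33 carriers so detected, 18 (54.5%) were positive in Ms3Yah, against 47.3% of 9485 genes. Gabpa itself had log2 changes of −0.05 in Ms3Yah and 0.06 in Ts3Yah (adjusted p of 0.99 and 0.95 by limma). A link between the motif and these changes was not tested. CCGGAAG is in capitals in the first 3 sequences below, of the carriers of phosphate, acylcarnitine and, in muscle, ADP/ATP.
Slc25a3, chr10:91123918-91124217, minus strand: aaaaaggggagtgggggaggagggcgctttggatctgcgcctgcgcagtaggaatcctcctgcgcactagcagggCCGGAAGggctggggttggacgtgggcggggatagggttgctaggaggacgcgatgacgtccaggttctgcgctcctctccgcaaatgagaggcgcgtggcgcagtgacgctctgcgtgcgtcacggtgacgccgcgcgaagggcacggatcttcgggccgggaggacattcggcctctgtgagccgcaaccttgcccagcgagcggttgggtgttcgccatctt
Slc25a20, chr9:108661886-108662185, plus strand: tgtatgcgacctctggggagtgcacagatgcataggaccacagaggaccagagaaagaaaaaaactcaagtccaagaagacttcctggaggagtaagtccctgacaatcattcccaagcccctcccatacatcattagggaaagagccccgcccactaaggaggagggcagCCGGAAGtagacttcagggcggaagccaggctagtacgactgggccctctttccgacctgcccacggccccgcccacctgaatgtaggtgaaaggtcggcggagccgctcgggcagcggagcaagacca
Slc25a4, chr8:46211013-46211312, minus strand: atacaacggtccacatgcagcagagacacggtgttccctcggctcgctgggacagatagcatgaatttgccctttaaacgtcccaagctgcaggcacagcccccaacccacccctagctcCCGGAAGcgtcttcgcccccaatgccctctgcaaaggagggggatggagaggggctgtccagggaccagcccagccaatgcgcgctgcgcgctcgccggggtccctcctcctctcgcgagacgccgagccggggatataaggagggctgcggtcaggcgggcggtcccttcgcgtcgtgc
One of 3 windows of Slc25a25, the most variable carrier among these mice, held TGACGTCA, the cyclic AMP response element, shown in capitals. This motif, searched on both strands, was found in 2 of the 36 carriers (Slc25a25 and Slc25a36, 5.56%), against 2.03% of all genes.
Slc25a25, chr2:32424017-32424316, minus strand: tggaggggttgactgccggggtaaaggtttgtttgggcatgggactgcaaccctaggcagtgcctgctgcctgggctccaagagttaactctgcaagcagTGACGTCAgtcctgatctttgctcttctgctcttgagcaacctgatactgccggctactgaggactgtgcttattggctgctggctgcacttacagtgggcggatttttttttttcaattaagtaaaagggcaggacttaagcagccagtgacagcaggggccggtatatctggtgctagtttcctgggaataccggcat

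Motifs of 2 other regulators of mitochondrial genes were searched in the same way. AAGGTCA, a core element bound by nuclear receptors, can share its first letters, AAG, with the end of CCGGAAG. It was in the window of 1 carrier (Slc25a34, 2.78%, against 5.38% of all genes). The NRF1 motif (GCGCA, any base, then GCGC) was in that of 2 carriers (Slc25a3 and Slc25a31, 5.56%, against 5.19%). The windows of Slc25a11 and Slc25a12, the carriers of the malate-aspartate shuttle, held none of the 4 motifs. A match describes these letters and is no evidence of binding.

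Gastrocnemius expressed most of the family. For 27 of 46 carriers at least 1 probe was detected on every array, for 6 more on 12 to 22 arrays, for 7 on 1 to 11 and for 6 on no array. Counted by probe, 35 of 76 were detected on every array, 10 on 12 to 22, 15 on 1 to 11 and 16 on none. Over the whole array, 9485 of 19057 genes and 16762 of 45281 probes were detected on at least 12 arrays. At a detection p below 0.05, detection on 1 array of 23 can arise from background alone. Signals of different probes are not comparable with each other, so no carrier is ranked against another by its brightness.

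Among carriers of energy metabolism, detection differed between isoforms. Among 3 ADP/ATP carriers, Slc25a4 (the isoform of heart and skeletal muscle) and Slc25a5 (the widely expressed isoform) were detected on all 23 arrays, whereas both probes of Slc25a31, known from the testis, were detected on none. Slc25a3, which brings in the phosphate for ATP synthesis, Slc25a20, which brings in acylcarnitines for β-oxidation, and Slc25a12, the aspartate/glutamate carrier of muscle and brain, were detected on every array. Slc25a13, the liver counterpart of Slc25a12, was detected on none with 2 probes. Of the glutamate carriers, Slc25a22 was detected on no array and Slc25a18 on 10. Of 4 carriers of di- and tricarboxylates, the oxoglutarate carrier Slc25a11, the citrate carrier Slc25a1 and the dicarboxylate carrier Slc25a10 were detected on every array and the oxodicarboxylate carrier Slc25a21 on none.

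Detection of the ATP-Mg/phosphate carriers was uneven. Slc25a25 was detected on every array, Slc25a23 and Slc25a24 on 19 arrays each and Slc25a41 on 1. Of 8 carriers for other amino acids, S-adenosylmethionine and glutathione, 5 were detected on every array: Slc25a15 (ornithine), Slc25a26 (S-adenosylmethionine), Slc25a38 (glycine), Slc25a39 (glutathione) and Slc25a44 (branched-chain amino acids). Slc25a29 was detected on 22 arrays, Slc25a2 on 11 and Slc25a40 on 1. Of 7 carriers of nucleotides and cofactors, 6 were detected on every array (Slc25a16, Slc25a17, Slc25a32, Slc25a33, Slc25a36 and Slc25a42), and the NAD carrier Slc25a51 was detected on none.

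Both iron carriers, Slc25a28 and Slc25a37, were detected on every array. Of the carriers related to uncoupling proteins, Slc25a14 was detected on 23 arrays, Slc25a30 on 21 and Slc25a27 on 17. The outer membrane member Slc25a46 was detected on 5 arrays. Among 8 members without a settled substrate, Slc25a34, Slc25a35, Slc25a45 and Slc25a47 were detected on every array, Slc25a53 on 22, Slc25a54 on 2, Slc25a48 on 1 and Slc25a43 on none. A carrier that was not detected may still be expressed below the reach of its probe.

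**Figure D1:**
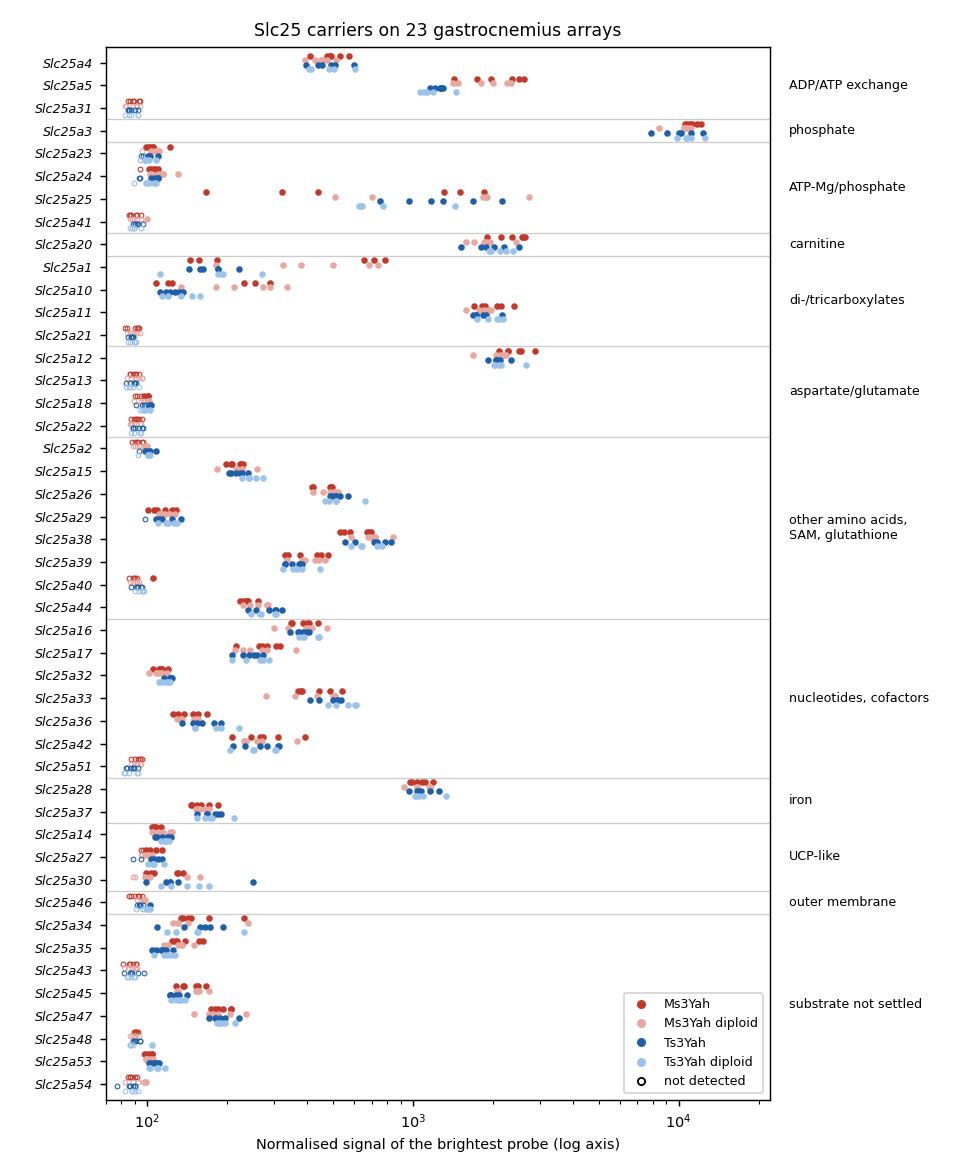
Normalised signal of the brightest probe of each of 46 carriers (x axis, log scale) in each of 23 mice, by substrate class, with Ms3Yah, Ms3Yah diploid, Ts3Yah and Ts3Yah diploid mice in 4 colours, slightly offset within each carrier. Open circles are arrays on which the probe was not detected. Slc25a25 spreads from 167 to 2737, and Slc25a1 and Slc25a10 spread more widely in the Ms3Yah line than in the Ts3Yah line.

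Brightness differed strongly between probes of 1 carrier. Slc25a20 had a probe averaging 2096 over the 23 mice (ILMN_3138499), one averaging 222 (ILMN_3061070) and one averaging 95.4 that was detected on 8 arrays (ILMN_2664821). Slc25a42, a coenzyme A carrier, had 1 probe of 271 that was detected on every array and 3 others between 89.0 and 91.9 that were detected on at most 4 arrays. Slc25a34 likewise had 1 probe detected on every array and 2 others that were detected on at most 1. For these carriers a detected and an undetected probe stand side by side, so detection was read from the carrier's best probe.

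The first comparison asks how monosomy of the interval relates to the carriers. In Ms3Yah muscles the probes with the smallest p-values among those higher than in diploid littermates belonged to the phosphate carrier Slc25a3, the acylcarnitine carrier Slc25a20, the oxoglutarate carrier Slc25a11 and the aspartate/glutamate carrier Slc25a12. Each was about 1.2 times the diploid level. The glycine carrier Slc25a38 and the branched-chain amino acid carrier Slc25a44 stood at the other end, at about 0.9 times the diploid level. None of the 76 probes passed limma at a Benjamini-Hochberg adjusted p below 0.05, where 8 of 44363 expressed probes (0.018%) did. At an unadjusted p below 0.05, limma gave 8 of the 76 (10.5%), against 5.16% of all expressed probes. Of the 8, 5 were higher, where 2.71% of all probes were, and 3 lower, where 2.46% were. Beside this p, 3 exceeded a fold of 1.2 (background 0.289%) and none lay under 0.8 (0.106%). No member had all its Ms3Yah mice above (0.158%) or below (0.126%) all diploid mice. All 76 had passed the filter on dim signals. Among the probes detected on at least 12 arrays the count was 7 of 45 (15.6%), against 7.77%. With arrays scaled to a common median the 8 of 76 became 4, and the share of all probes at that scaling is not given here.

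Slc25a3 carried the smallest p-value. Its dimmer probe (ILMN_2960467) had signals from 1363 through a median of 1589 to 1856 in Ms3Yah, against 1122 through 1328 to 1389 in diploid littermates. Of the 6 Ms3Yah mice, 6 lay above the diploid mean, and 1 lay within the diploid range. The means were 1592 ± 162 in Ms3Yah and 1295 ± 100.1 in diploids (SD, n = 6 each), 1.23 times the diploid level. The log2 change was 0.30 ± 0.07 (SE), with an unadjusted p of 0.00103 and an adjusted p of 0.51 by limma. The brighter probe (ILMN_2751046) had 10575 through 11169 to 12097 in Ms3Yah, against 8419 through 10571 to 11154 in diploids. Its log2 change was 0.13 ± 0.06 (SE), with an unadjusted p of 0.065 by limma. Again 6 of 6 Ms3Yah mice lay above the diploid mean, and 1 diploid mouse at 8419 lay far below the other 5. Without that mouse the log2 change was 0.07. Slc25a3 has near copies in the genome, and the files do not say which of them the dimmer probe could also read.

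Slc25a20 had positive log2 changes at both of the probes detected on every array. The brighter one had 1901 through 2470 to 2633 in Ms3Yah, against 1589 through 1873 to 2452 in diploids, and 5 of 6 Ms3Yah mice lay above the diploid mean. The log2 change was 0.32 ± 0.11 (SE), or 1.24 times, with an unadjusted p of 0.0096 and an adjusted p of 0.86 by limma. The dimmer one had 219.7 through 258 to 327 in Ms3Yah, against 204 through 218 to 288 in diploids, a log2 change of 0.23 ± 0.10 (SE; unadjusted p of 0.041 by limma). The groups overlapped at both probes, since 1 diploid mouse reached 2452 at one and 288 at the other. The same mouse was high at both.

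The carriers of the malate-aspartate shuttle had positive log2 changes at all 5 of their probes. Slc25a12 at its brighter probe (ILMN_2972855) had 2116 through 2401 to 2895 in Ms3Yah, against 1681 through 2159 to 2242 in diploids. All 6 Ms3Yah mice lay above the diploid mean, with a log2 change of 0.23 ± 0.08 (SE; unadjusted p of 0.018, adjusted p of 0.91 by limma). Its dimmer probe gave 0.14 ± 0.10 (SE; unadjusted p of 0.15 by limma), with 4 of 6 Ms3Yah mice above the diploid mean. Slc25a11 at its dimmest probe (ILMN_2600053) had 480.1 through 569 to 659 in Ms3Yah, against 389.7 through 444 to 549.6 in diploids. Again 6 of 6 lay above the diploid mean, with a log2 change of 0.28 ± 0.10 (SE; unadjusted p of 0.014, adjusted p of 0.89 by limma). Its 2 brighter probes had log2 changes of 0.11 and 0.13, with unadjusted p of 0.177 and 0.215 by limma.

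The muscle ADP/ATP carrier Slc25a4 had 411 through 491 to 575 in Ms3Yah, against 394 through 457 to 515 in diploids. Its log2 change was 0.12 ± 0.08 (SE), with an unadjusted p of 0.14 by limma, and 5 of 6 Ms3Yah mice lay above the diploid mean. It was within the spread between mice.

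At the other end, Slc25a44 had 224 through 237 to 262 in Ms3Yah, against 230.3 through 272 to 284 in diploids, with 6 of 6 Ms3Yah mice below the diploid mean (log2 change −0.15 ± 0.06 SE, unadjusted p of 0.025, adjusted p of 0.95 by limma). Slc25a38, whose product brings in the glycine that starts haem synthesis, had 532 through 627 to 694 in Ms3Yah at its brightest probe, against 584 through 708 to 842 in diploids (log2 change −0.19 ± 0.09 SE, unadjusted p of 0.052 by limma). Its dimmest probe (ILMN_2946901) gave −0.17 ± 0.08 (SE; unadjusted p of 0.042 by limma), again with 6 of 6 below the diploid mean. The remaining probe past an unadjusted p of 0.05 was that of Slc25a46, at 90.8 ± 3.90 in Ms3Yah and 96.5 ± 2.32 in diploids (SD, n = 6 each), near background and detected on 5 of 23 arrays. Slc25a24, Slc25a36 and Slc25a14 completed the 6 leading lower probes, each within 0.12 log2 units of diploid and with unadjusted p between 0.065 and 0.099 by limma.

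Read over the 33 carriers detected on at least 12 arrays, each at its brightest such probe, 18 log2 changes were positive and 15 negative. Their median was 0.0073, against −0.0048 over 9485 genes read the same way, of which 47.3% were positive. The family therefore stood near the array's centre as a whole. With median scaling 15 of 33 were positive and the median was −0.011, against −0.029 over all genes. By substrate, both ADP/ATP carriers, the phosphate, acylcarnitine and aspartate/glutamate carriers and all 6 nucleotide and cofactor carriers (median 0.027) were positive. With median scaling, Slc25a16 and Slc25a33 of the last class were negative. None of 6 carriers for other amino acids, S-adenosylmethionine and glutathione was positive (median −0.044), nor any of 3 ATP-Mg/phosphate carriers (−0.11) or 2 iron carriers (−0.0074). Of the di- and tricarboxylate carriers 1 of 3 was positive (median −0.32), of those related to uncoupling proteins 2 of 3 (0.044). Of those without a settled substrate 4 of 5 were positive (0.039). Among fibroblast markers 4 of 5 were positive in Ms3Yah (median 0.23), with Col1a1, a collagen gene, at 0.65 ± 0.15 (SE, unadjusted p of 0.0011, adjusted p of 0.51 by limma). None of 5 adipocyte markers was positive (median −0.73), the lowest being Lep (−1.06 ± 0.57 SE, unadjusted p of 0.084 by limma). Positive were 2 of 4 detected endothelial markers (median 0.043), 2 of 3 macrophage and leukocyte markers (0.012) and 2 of 2 Schwann cell markers (0.13). So were 1 of 2 erythroid markers (0.13) and 3 of 6 muscle markers (0.0048). The part of these markers in the carriers' values was not tested.

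**Figure D2:**
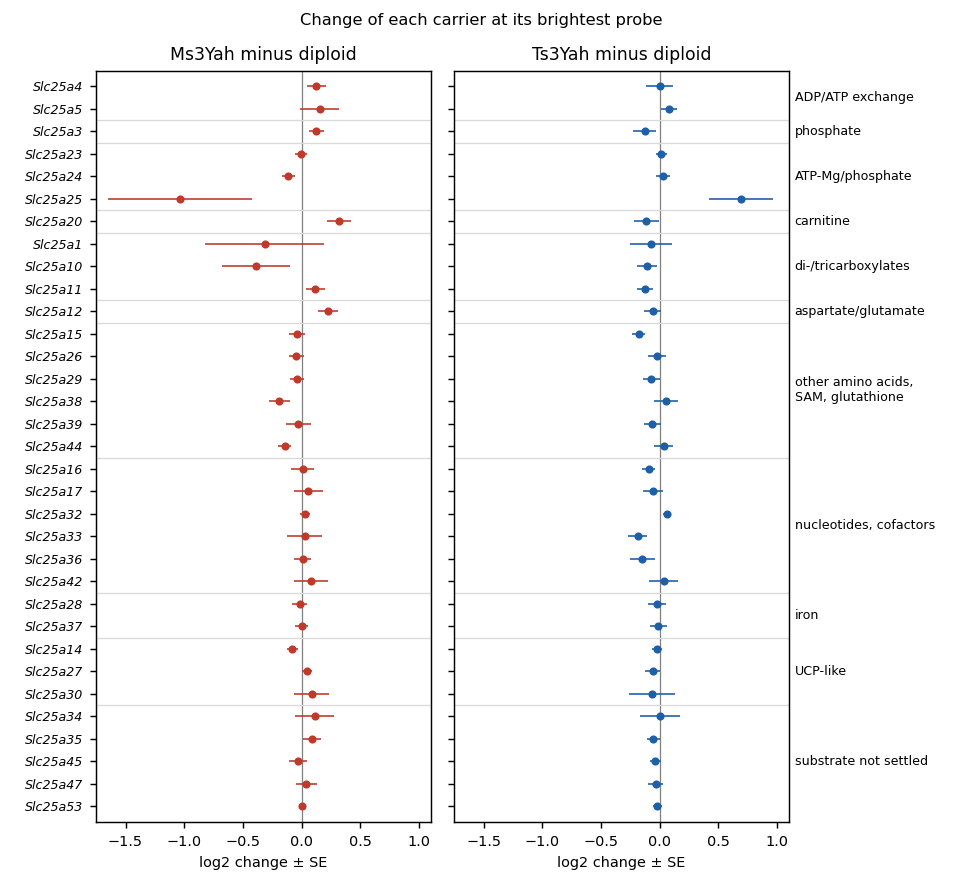
Log2 change ± SE of 33 carriers at their brightest probe, Ms3Yah minus diploid on the left and Ts3Yah minus diploid on the right, by substrate class. In Ms3Yah 18 of 33 points lie right of 0, in Ts3Yah 9 of 33, and Slc25a25 (−1.04 and 0.70) lies farthest out in both.

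The second comparison asks the same of trisomy. In Ts3Yah muscles the lower carriers outnumbered the higher ones, by small amounts. The smallest p-values among lower probes were those of the aspartate/glutamate carrier Slc25a12, the ornithine carrier Slc25a15, the pyrimidine nucleotide carrier Slc25a33 and the oxoglutarate carrier Slc25a11. The 1 higher probe with an unadjusted p below 0.05 was that of the ATP-Mg/phosphate carrier Slc25a25. No probe of the 76 passed an adjusted p of 0.05 by limma, where 2 of 43917 expressed probes (0.00455%) did. At an unadjusted p below 0.05 there were 5 of 76 (6.58%), against 5.56% of all expressed probes. Of the 5, 1 was higher (2.74% of all probes) and 4 lower (2.81%). Among the probes detected on at least 12 arrays it was 5 of 45 (11.1%), against 8.99%. Beside this p, 1 exceeded a fold of 1.2 (background 0.353%) and none lay under 0.8 (0.123%). No member had all its Ts3Yah mice above (0.262%) or below (0.276%) all diploid mice. With median scaling the 5 became 1, and the share of all probes at that scaling is not given here.

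Slc25a12 was read differently by its 2 probes. The dimmer one (ILMN_2474684) had 492, 495, 525, 529, 531 and 752 in the 6 Ts3Yah mice, against 649.9, 655, 674, 702 and 711 in the 5 diploids. The first 5 Ts3Yah mice lay below every diploid mouse, and the remaining one (mouse 34498) lay above every diploid mouse. The log2 change was −0.31 ± 0.09 (SE), with an unadjusted p of 0.0057 and an adjusted p of 0.80 by limma. Without mouse 34498 it was −0.40 with an adjusted p of 0.00763 by limma, the only case in which leaving out 1 mouse gave a member an adjusted p below 0.05. Under every other alternative run for this probe the adjusted p by limma or the methods' t-test lay between 0.670 and 0.999. The brighter probe had 1925 through 2071 to 2341 in Ts3Yah, against 2018, 2037, 2116, 2147 and 2663 in diploids (log2 change −0.06 ± 0.07 SE, unadjusted p of 0.40 by limma). Without the diploid mouse at 2663 it was 0.01.

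Slc25a15, which exchanges ornithine and citrulline, had 203 through 219.5 to 239 in Ts3Yah, against 228, 241.1, 241.5, 258 and 274 in diploids. All 6 Ts3Yah mice lay below the diploid mean (log2 change −0.18 ± 0.05 SE, unadjusted p of 0.0060, adjusted p of 0.81 by limma). Slc25a33 had 411 through 509.8 to 536 in Ts3Yah, against 481, 514, 571, 608 and 612 in diploids, again 6 of 6 below the diploid mean (log2 change −0.19 ± 0.08 SE, unadjusted p of 0.039, adjusted p of 0.88 by limma). Slc25a11 at its dimmest probe had 476 through 517 to 552 in Ts3Yah, against 514, 515, 583, 604 and 630.2 in diploids. There too 6 of 6 lay below the diploid mean (log2 change −0.14 ± 0.06 SE, unadjusted p of 0.043 by limma), while its brightest probe gave −0.12 ± 0.07 and its middle one −0.03 ± 0.06 (SE; unadjusted p of 0.10 and 0.64 by limma). The groups overlapped for all 3 carriers.

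The phosphate carrier Slc25a3 had log2 changes of −0.13 ± 0.10 (SE) at the brighter and −0.05 ± 0.07 (SE) at the dimmer probe, and Ts3Yah signals at the brighter probe ran from 7875 to 12382, against 9839 to 12564 in diploids. Slc25a20 had −0.11 ± 0.11 (SE) at the brighter and 0.10 ± 0.11 (SE) at the dimmer probe, the signs of which differ. Slc25a4 had 396 through 473 to 603 in Ts3Yah, against 409, 413, 483, 507 and 605 in diploids, with a log2 change whose sign turned in 6 of 11 fits that left out a mouse. Among the other named probes, Slc25a32 (log2 change 0.06), Slc25a5 (0.08) and Slc25a16 (−0.09) had unadjusted p between 0.10 and 0.29 by limma.

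Over the 33 carriers, 9 log2 changes were positive and 24 negative, with a median of −0.037, against −0.0029 over 9485 genes, of which 48.7% were positive. The direction of the median held with each other scaling, from −0.048 with median scaling to −0.081 with the authors' series matrix values. With the signal of Xist, the marker of female cells, as a covariate, 13 of 33 were positive and the median was −0.032. All 33 carriers were read in the same mice, so their signs are not separate results. Mouse by mouse, the carriers' median log2 deviation from the diploid means ran from −0.085 to 0.034 in Ts3Yah. In their diploid littermates it ran from −0.032 to 0.027, so the groups overlapped. Markers of cell types in Ts3Yah had log2 changes in both directions, none with an adjusted p below 0.05 by limma. All 4 endothelial markers detected on at least 12 arrays were negative (median −0.21). Among them were Pecam1 (−0.31 ± 0.14 SE) and Tek (−0.26 ± 0.10 SE), with unadjusted p of 0.049 and 0.023 by limma. Both Schwann cell markers, Mbp and Pmp22, were negative (median −0.36), and 1 of 5 adipocyte markers was positive (median −0.16). All 3 detected macrophage and leukocyte markers (median 0.20) and 4 of 5 fibroblast markers (median 0.11) were positive. Of 6 muscle markers 3 were positive (median 0.014). The lowest was Mb, which encodes myoglobin (−0.27 ± 0.08 SE, unadjusted p of 0.0051, adjusted p of 0.80 by limma). The part of these markers in the carriers' values was not tested.

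The third comparison sets the lines against each other, as the Ts3Yah change minus the Ms3Yah change in a fit of all 4 groups. No member passed an adjusted p of 0.05 by limma, where 12 of 43141 probes (0.0278%) did. At an unadjusted p below 0.05 there were 7 of 76 (9.21%), against 5.74% of probes. Of the 7, 1 was higher (2.68% of all probes) and 6 lower (3.06%), and among the probes detected on at least 12 arrays it was 7 of 45 (15.6%), against 8.27%. Slc25a11 at its dimmest probe was the clearest mouse by mouse. Every Ms3Yah mouse lay above and every Ts3Yah mouse below its own diploid mean, and the difference was −0.42 ± 0.13 (SE; unadjusted p of 0.0028, adjusted p of 0.49 by limma). Its other probes gave −0.24 ± 0.11 and −0.16 ± 0.13 (SE; unadjusted p of 0.046 and 0.22 by limma). Slc25a3 gave −0.35 ± 0.10 at its dimmer and −0.25 ± 0.12 at its brighter probe (SE; adjusted p of 0.46 and 0.87), Slc25a20 at its brighter probe −0.43 ± 0.16 and at its dimmer detected probe −0.13 ± 0.16 (SE; adjusted p of 0.72 and 0.98), and Slc25a12 −0.45 ± 0.14 at the dimmer and −0.29 ± 0.12 at the brighter probe (SE; adjusted p of 0.53 and 0.79 by limma). Of the 33 carriers, 14 (42.4%) were positive in Ms3Yah and negative in Ts3Yah, against 25.8% of 9485 genes. With median scaling the 7 probes became 2, and the share of all probes at that scaling is not given here.

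**Figure D3:**
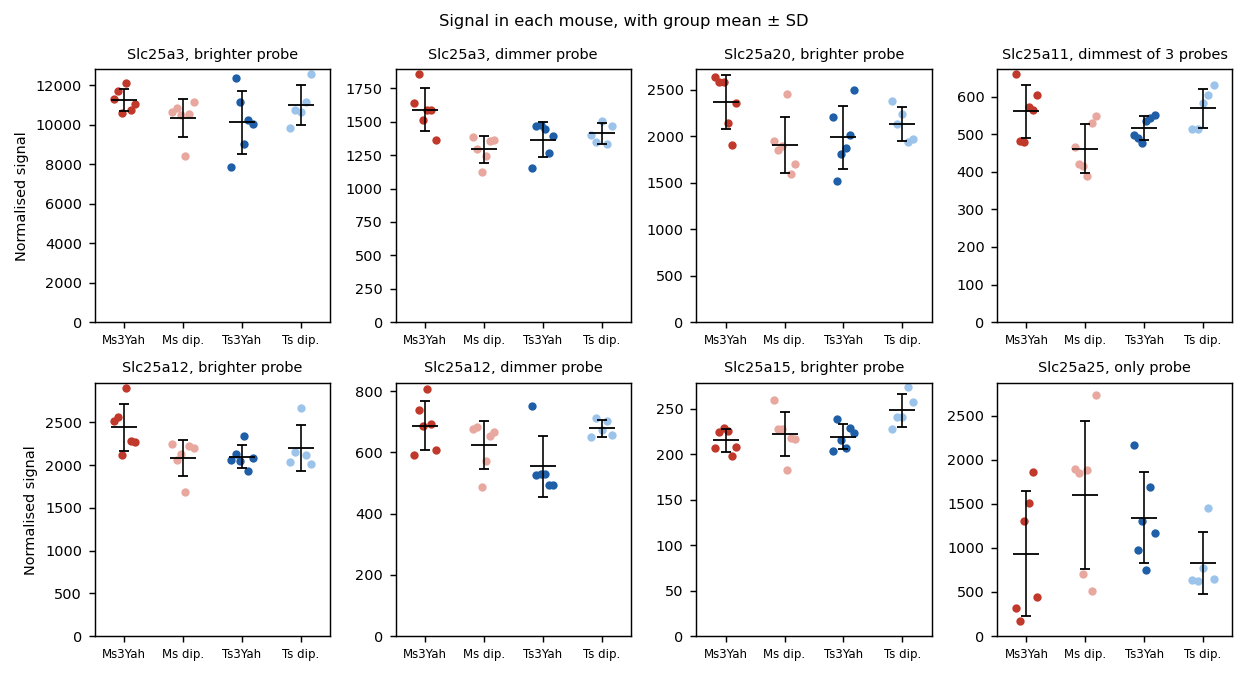
Normalised signal in each mouse (y axis, linear from 0) for 8 probes of 6 carriers, with Ms3Yah left of its diploid littermates and Ts3Yah left of its own. Black bars are the group mean ± SD, and 1 Ts3Yah mouse at 752 stands above the other 5 for the dimmer probe of Slc25a12.

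Slc25a25, the calcium-activated ATP-Mg/phosphate carrier, differed most between mice of 1 group. The 6 Ms3Yah mice had 167, 322, 441, 1309, 1507 and 1859.8, against 511, 699, 1843, 1886, 1895 and 2737 in their diploid littermates. The 6 Ts3Yah mice had 753, 970.5, 1169, 1299.5, 1687 and 2169, against 626, 640.3, 647, 771 and 1448 in theirs. Its log2 change was −1.04 ± 0.61 (SE; unadjusted p of 0.12 by limma) in Ms3Yah and 0.70 ± 0.27 (SE; unadjusted p of 0.025, adjusted p of 0.86 by limma) in Ts3Yah. The difference between lines was 1.73 ± 0.74 (SE; adjusted p of 0.80 by limma). Within groups the SD of its log2 signal was 0.93, against a median of 0.15 over the 45 member probes detected on at least 12 arrays and 0.13 over all 16762 such probes.

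The probes whose log2 signals went most closely with Slc25a25 over the 23 mice, of 16761 searched, were Tob2 (Pearson r = 0.79), 2 probes of Per1 (0.76 and 0.75), Klf2 (0.74), Klf4 (0.73) and Spag9 (0.71). Per1 is a gene of the circadian clock, and Klf2 and Klf4 encode zinc finger transcription factors. Per1 had r = 0.86 (Spearman's rho = 0.73) in the 12 mice of the Ms3Yah line and r = 0.80 (rho = 0.85) in the 11 of the Ts3Yah line. Tob2 had r = 0.92 (rho = 0.90) in the first and r = 0.70 (rho = 0.73) in the second. These genes were picked for their correlation, so the values are a description and carry no p.

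Slc25a1, Slc25a10 and Slc25a5 were set beside the adipocyte marker Adipoq, which encodes adiponectin. These 3 were chosen after their values were seen, so the relation is a description and carries no p. In the Ms3Yah line Adipoq was between 365 and 705 in 4 mice (3 Ms3Yah and 1 diploid) and between 2420 and 4803 in 8 mice (3 Ms3Yah and 5 diploid), with none between. The citrate carrier Slc25a1, which supplies cytosolic acetyl-CoA for fatty acid synthesis, had 145, 157, 183, 656, 715 and 783 in Ms3Yah, against 181, 324, 379, 501, 686 and 739 in diploids. Its signals were 145 to 183 in the 4 mice with low Adipoq and 324 to 783 in the 8 others. The dicarboxylate carrier Slc25a10 had 108 to 134 in the 4 mice with low Adipoq and 182 to 335 in the 8 others. The widely expressed ADP/ATP carrier Slc25a5 had 1432 through 2167 to 2631 in Ms3Yah, against 1419 through 1903 to 2338 in diploids, and its signals overlapped between the 4 mice with low Adipoq (1419 to 1968) and the 8 others (1485 to 2631). Its log2 change was 0.16 ± 0.17 (SE; unadjusted p of 0.37 by limma). Neither Slc25a1 nor Slc25a10 differed between genotypes beyond the spread (Slc25a1, log2 change −0.32 ± 0.51 SE; Slc25a10, −0.39 ± 0.29 SE; unadjusted p of 0.55 and 0.21 by limma).

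Because the Ms3Yah line lay in 2 separate sets, correlations were taken within the 8 mice with high Adipoq and within the 11 mice of the Ts3Yah line. For Slc25a1, r was 0.73 (rho = 0.67) in the 8 mice and 0.70 (rho = 0.67) in the 11. For Slc25a10, r was 0.82 (rho = 0.86) in the 8 and 0.49 (rho = 0.36) in the 11. For Slc25a5, r was 0.69 (rho = 0.57) in the 8 and 0.50 (rho = 0.40) in the 11. Without the 2 mice farthest from the median of Adipoq, r lay between 0.52 and 0.69, except for Slc25a5 in the Ts3Yah line, where it was −0.36. Bulk signals do not separate more adipocytes from more RNA per adipocyte, and the part of fat in these carriers was not tested.

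**Figure D4:**
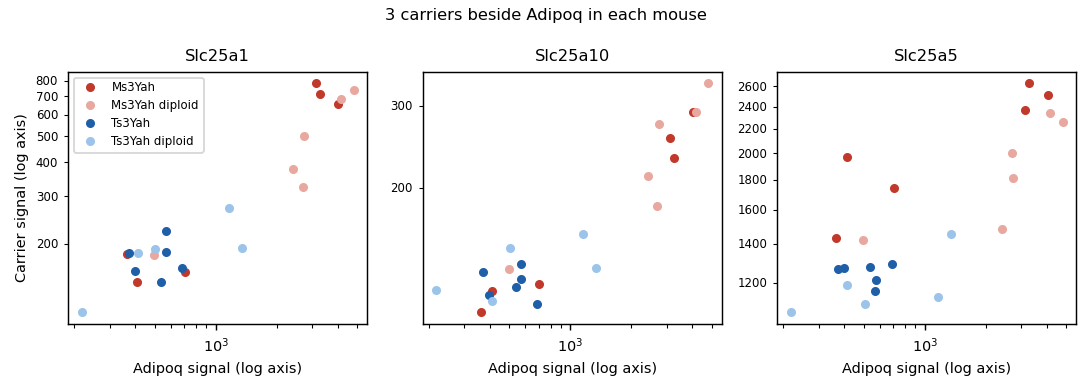
Signal of Slc25a1, Slc25a10 and Slc25a5 (y axes) against that of Adipoq (x axis, both log scales), 1 point per mouse. The 8 mice of the Ms3Yah line with Adipoq above 2000 hold the highest Slc25a1 signals, from 324 to 783.

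Agreement between probes could be asked of 6 carriers with at least 2 probes detected on every array, each dimmer probe being set against the brightest one within each line. This gave 16 pairs. The sign of the log2 change was the same in 13 of 16, 7 of 8 in Ms3Yah and 6 of 8 in Ts3Yah. Slc25a11 and Slc25a38 each gave 2 pairs per line that share a brightest probe, so the pairs are not independent. The share for probes of other genes is not given here. The difference between the probes' changes was tested by an exact permutation test (two-sided) on each mouse's ratio. No pair passed, either before or after adjustment; the smallest p was 0.063, for Slc25a3 in Ms3Yah (0.13 at the brighter and 0.30 at the dimmer probe), and the smallest these group sizes allow is 0.0022. In Ts3Yah the smallest p was 0.097, for Slc25a12 (−0.06 and −0.31). The 3 pairs of opposite sign were Slc25a36 in Ms3Yah (0.01 and −0.10), Slc25a20 in Ts3Yah (−0.11 and 0.10) and 1 pair of Slc25a38 in Ts3Yah (0.05 and −0.03). Leaving out 1 mouse at a time, between 10 and 14 pairs kept 1 sign.

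Mouse by mouse the probes of a carrier went together to different degrees. Aneuploid and diploid mice of a line were pooled, so a genotype difference shared by 2 probes can also raise their correlation. Over the 16 pairs, permutation tests on log2 signals gave an adjusted p below 0.05 for 1, Slc25a20 in the 12 mice of the Ms3Yah line (r = 0.83, p = 0.0012, adjusted p = 0.019; rho = 0.78, p = 0.0041, adjusted p = 0.066; r = 0.85 without the 2 mice farthest from the median of the brighter probe). In the Ts3Yah line the same pair had r = 0.32 (p = 0.33, permutation test; rho = 0.19, p = 0.57; −0.13 without the 2 mice). Slc25a3 had r = 0.58 (p = 0.046, adjusted p = 0.11; rho = 0.73, p = 0.0095) in the Ms3Yah line by a permutation test and r = 0.64 (p = 0.035, adjusted p = 0.11; rho = 0.46, p = 0.16) in the Ts3Yah line, where it rested on 2 mice (0.14 without them). Slc25a12 had r = 0.56 (p = 0.064; rho = 0.48, p = 0.12) and r = 0.19 (p = 0.61; rho = 0.32, p = 0.34) in the Ms3Yah and Ts3Yah lines by permutation tests, with r of 0.20 and 0.35 once the 2 mice farthest from the median were left out.

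**Figure D5:**
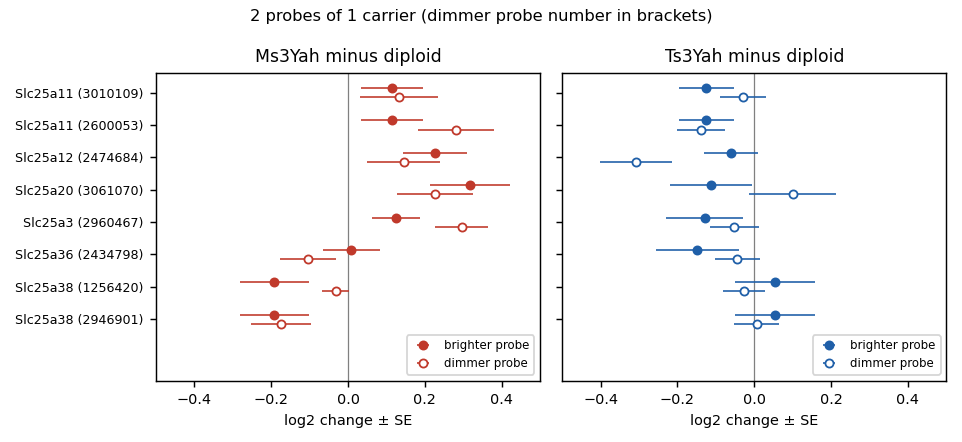
Log2 change ± SE of the brightest probe (filled) and a dimmer probe (open) of 1 carrier, Ms3Yah minus diploid on the left and Ts3Yah minus diploid on the right, for 8 pairs of 6 carriers. Filled and open points lie on the same side of 0 in 7 of 8 pairs in Ms3Yah and in 6 of 8 in Ts3Yah.

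Partners of the carriers were read at their brightest probe, and their counts stand against the 7.77% of detected probes in Ms3Yah and 8.99% in Ts3Yah that passed an unadjusted p of 0.05. The malate-aspartate shuttle needs Got2, Mdh1 and Mdh2 beside Slc25a11 and Slc25a12 (Got1 has no named probe here). All 3 had an unadjusted p below 0.05 and a positive log2 change in Ms3Yah: Got2, the mitochondrial aspartate aminotransferase, had 0.26 ± 0.09 (SE), Mdh1 0.27 ± 0.12 (SE) and Mdh2 0.19 ± 0.06 (SE), with p of 0.011, 0.042 and 0.010 by limma. In Ts3Yah the log2 changes were −0.18 ± 0.05 (SE) for Got2, −0.16 ± 0.07 (SE) for Mdh1 and −0.10 ± 0.07 (SE) for Mdh2, with unadjusted p of 0.0030, 0.041 and 0.21 by limma. Of 4 detected partners of Slc25a20, Cpt2, which re-forms acyl-CoA in the matrix, had −0.18 ± 0.07 (SE; unadjusted p of 0.019 by limma) in Ts3Yah and 0.15 ± 0.08 (SE) in Ms3Yah, and no other passed an unadjusted p of 0.05 in either line. Of the family members under other symbols, Ucp3, Mtch1 and Mtch2 did not pass it in either line. Ucp1, also a marker of brown adipocytes, was detected on 8 arrays, all of them of the Ms3Yah line. Summed signals of 3 brown adipocyte markers (Ucp1, Cidea and Elovl3) ran from 315 to 1884 in Ms3Yah and from 265 to 1030 in their diploid littermates. They ran from 266 to 293 in Ts3Yah and from 266 to 296 in theirs. Elovl3 was detected on no array. Cidea, detected on 18 arrays, averaged 673 in Ms3Yah and 387 in their diploid littermates, against 160 and 112 for Ucp1. The cell source of Ucp1 was not tested. Of 10 detected mitochondrial transporters outside the family, 1 passed it (10%), Abcb8 in Ms3Yah (0.23 ± 0.07 SE), near the background. No gene of these lists passed an adjusted p of 0.05 by limma in either line.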

How the data were processed

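The authors labelled total RNA of gastrocnemius and hybridised it to MouseWG-6 v2.0 arrays (Illumina). The deposited probe signals are intensity values, neither background-subtracted nor normalised, each with a detection p-value that the authors give beside it. The series matrix holds the authors' intensity values after background subtraction and quantile normalisation; how background was subtracted is not given in the sources used here. A further Ts3Yah diploid mouse was set aside by the authors after principal component analysis.

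Signals were quantile normalised over 23 arrays and log2 transformed. Probes above the 35th percentile (89.8) on at least 1 array of a line were fitted with limma 3.58.1 in R 4.3.3, each line apart, and p-values adjusted over all of them. Folds are ratios of mean signals. Detected means p below 0.05. Genes come from GEO's platform annotation (34885 probes with 1 gene, 18 with several, 10378 with none). Correlations between probes of 1 carrier used 100000 permutations in Python 3.11.15. The fit was tested on simulated data. Each group has 5 or 6 mice, which limits precision. Mice are separate animals.

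The members, lists and naming rule were chosen with earlier results of these data known. The rule names every carrier, 4 carriers of the study's text (Slc25a3, Slc25a4, Slc25a11 and Slc25a20), the 6 detected probes with the smallest p per line and direction, carriers with at least 2 probes detected on every array, the 3 largest differences between lines, and up to 4 genes per other list. Alternatives were other scaling, background correction, filters, a joint fit, Xist as covariate, the methods' t-test, the mean of a carrier's probes and leaving out each mouse.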

Additional observations from a re-analysis of the deposited data

Results flagged for a closer look

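Over 92 group checks of 23 named probes, 8 held a mouse far from the others of its group, and chance gives about 1 in 20. In Ts3Yah, mouse 34730 had 250.9 for the dimmer detected probe of Slc25a20 (the other 5 from 176 to 201), mouse 34661 had 116.4 for Slc25a32 (the other 5 from 122 to 124) and mouse 34498 had 752 for the dimmer probe of Slc25a12 (the other 5 from 492 to 531). In Ts3Yah diploid mice, mouse 34731 had 2663 for the brighter probe of Slc25a12 (the other 4 from 2018 to 2147), and mouse 34923 had 200.5 for the dimmest probe of Slc25a38 (the other 4 from 155 to 166) and 1448 for Slc25a25 (the other 4 from 626 to 771). In Ms3Yah diploid mice, mouse 37094 had 8419 for the brighter probe of Slc25a3 (the other 5 from 10481 to 11154) and 1681 for the brighter probe of Slc25a12 (the other 5 from 2056 to 2242). Mice 37094 and 34923 each stood apart for 2 probes.

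The log2 change of Slc25a11 at its dimmest probe was lower in Ts3Yah than in Ms3Yah (difference −0.42), with every mouse on its line's side of the diploid mean, and the test of this difference gave an adjusted p of 0.49 by limma.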

How the results depend on the processing

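No paired analysis was run. Each number in the labels names 1 mouse and recurs in no other group, and the labels do not say which mice shared a litter. Likeness between mice of 1 litter was therefore not modelled. The count of member probes with an adjusted p below 0.05 was 0 in each line and between lines under every alternative run, except 1 (Slc25a12, dimmer probe, log2 change −0.40) in Ts3Yah without mouse 34498. Leaving out 1 mouse, the count at an unadjusted p below 0.05 ran from 6 to 10 in Ms3Yah, from 2 (without Ts3Yah mouse 34498) to 6 in Ts3Yah, with 3 without diploid mouse 34923, and from 5 to 9 between lines. The carriers' median then ran from −0.0081 to 0.024 in Ms3Yah, from −0.054 to −0.026 in Ts3Yah and from −0.082 to −0.028 between lines. With median scaling the unadjusted counts were 4 in Ms3Yah, 1 in Ts3Yah and 2 between lines. In Ts3Yah they were 3 with neqc and 3 with the series matrix, whose median of the carriers was −0.081 in Ts3Yah and −0.12 between lines; the cause was not tested. The methods' t-test gave 6, 4 and 6 member probes unadjusted and 0 after Benjamini-Hochberg adjustment. Over all probes tested it gave 2291, 2348 and 2466 unadjusted, and 6, 0 and 10 after adjustment. For the other alternatives no count over all probes stands beside the members' count. A lower count there cannot be read as particular to the carriers.

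Of 1585 values of named probes under alternatives, 1543 kept direction and call, 1 (Slc25a12) gained the call and 41 changed sign, none of them called. With median scaling Slc25a33 (−0.027) and Slc25a16 (−0.043) changed sign in Ms3Yah and the dimmest Slc25a38 probe (−0.0049) in Ts3Yah. With the series matrix the dimmest Slc25a20 probe changed sign in Ms3Yah (0.061) and Ts3Yah (0.14), and Slc25a36 in Ts3Yah (0.069). With Xist as covariate Slc25a4 did in Ts3Yah (0.0017). Leaving out 1 mouse gave, in Ms3Yah, −0.064 to 0.068 for Slc25a16, −0.094 to 0.079 for Slc25a33 and −0.093 to 0.0074 for Slc25a15. In Ts3Yah it gave −0.068 to 0.084 for Slc25a4, −0.0065 to 0.085 for Slc25a44, −0.022 to 0.071 for the dimmest Slc25a38 probe, −0.029 to 0.016 for the dimmest Slc25a36 probe, −0.067 to 0.0036 for the middle Slc25a11 probe, −0.093 to 0.011 for the brighter Slc25a12 probe, −0.012 to 0.060 for Slc25a24 and −0.039 to 0.019 for the dimmest Slc25a20 probe, which between lines gave −0.0055 to 0.054. Probes near background, such as these of Slc25a20, Slc25a24 and Slc25a36, can show little change.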
